A study of Mus musculus with 35 samples.

Results

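A list of 33 mouse megakaryocyte and platelet genes was followed through RNA-seq counts of LT-HSCs, long-term haematopoietic stem cells, from which all blood forms. The genes form a named list of platelet receptors, granule proteins and signalling genes, and the rule uses no measured value. The list was, however, chosen with earlier results of these data known. Its shares of called genes are therefore not those of a list drawn blind to the data. Of the 33, 32 were found among the 19138 genes counted, and 31 of these passed the filter on low counts that left 14945 genes. Gp6 was not analysed here, and Cd226, an adhesion receptor, had 164 counts over 8 of the 35 libraries and was removed by the filter. Shares below refer to the 31 genes tested, since the filter keeps genes that are high in at least 1 group.

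The 35 libraries came from 6 genotypes, and every mouse carried SclCre, a Cre recombinase driven by regulatory elements of the blood stem cell gene Scl, the controls included. Control mice had both normal Ezh2 alleles (4 libraries). LT-HSCs labelled Ezh2 +/- had 1 allele left (7 libraries) and those labelled Ezh2 -/- had none (4 libraries). The other 3 groups carried JAK2V617F as well, with Ezh2 +/+ (6 libraries), Ezh2 +/- (8 libraries) and Ezh2 -/- (6 libraries). JAK2V617F is the activated form of a kinase that signals beneath cytokine receptors, and Ezh2 is the enzyme of the gene-silencing complex PRC2. Each library was made from 1000 sorted LT-HSCs with a kit for low RNA input. The labels name an experimental batch and a sex for each library but neither an age nor a strain, nor the animal behind each library. The p-values therefore reflect only how much libraries varied, which may be technical.

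Megakaryocytes release platelets, which carry the von Willebrand factor receptor (Gp1ba, Gp1bb, Gp5, Gp9), the fibrinogen receptor (Itga2b with Itgb3) and thrombin and ADP receptors on their surface, and store Pf4, Vwf, Selp, Mmrn1, Thbs1 and F5 in granules. Some LT-HSCs transcribe platelet genes such as Vwf and Itga2b, and such cells have been described as biased towards platelets. In bulk libraries, fewer cells of a type and less RNA per cell cannot be told apart.

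The libraries held 13.6 M to 48.6 M (megareads) counted reads, with a median of 24.9 M. A part of Ezh2 that the files count on its own took 6.02% to 8.72% of Ezh2 counts in controls and 6.34% to 9.27% with JAK2V617F. It took 0% to 0.478% in Ezh2 -/- and 0% in all 6 JAK2V617F Ezh2 -/- libraries. With 1 allele it spread from 0% to 9.5% in Ezh2 +/-, beyond the highest control, and from 4.08% to 8.49% in JAK2V617F Ezh2 +/-. The library labelled Ezh2 +/- batch 1 replicate 3 had none of its Ezh2 counts in that part, which no source says is the deleted one, and the one labelled Ezh2 +/- batch 1 replicate 1 was labelled male but had 394.2 CPM of Xist (CPM, read counts scaled to the same library total). All 4 control libraries were female, as were the 2 JAK2V617F libraries of batch 1, while the 4 of batch 2 were male. Libraries are named here by genotype, batch and replicate.

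The platelet genes of control stem cells covered a wide range of levels. In the 4 controls, the highest per length were Rgs18, a regulator of G protein signalling, with 418.1 ± 77.2 CPM per kilobase (SD, n = 4), and Bin2, a membrane-binding protein, with 331.9 ± 40.6. Next came the tetraspanin Cd9 (214.8 ± 24.1) and the ETS transcription factor Fli1 (199.9 ± 10.1), whose spreads overlapped. Gng11, a G protein gamma subunit, followed at 175.7 ± 17.9 CPM per kilobase, then Mmrn1, the granule carrier of factor V, at 119.8 ± 6.3 and Gp9 at 115.8 ± 7.6, which did not differ beyond their spread. Pf4 (87.8 ± 10.2) and the adaptor Lat (87.6 ± 10.5) were level with each other, ahead of Itga2b at 55.5 ± 25.2. At the other end, Gp1bb stood at 0.878 ± 0.507, the lipoxygenase Alox12 at 0.564 ± 0.909, the ADP receptor P2ry12 at 0.414 ± 0.287 and the megakaryocyte tubulin Tubb1 at 0.245 ± 0.295 CPM per kilobase, and Cd226 had no count in any control.

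Some genes varied little between libraries of the same genotype and batch, and others scattered widely. The SD of log2(CPM + 1) within genotype and batch was 0.16 for Bin2, 0.17 for Cd9, 0.19 for Rgs18 and 0.22 for Gng11. The same SD was 1.11 for Pf4, 1.02 for the protease inhibitor Serpine2, 0.97 for Alox12 and 0.93 for Thbs1.

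The level of the whole list, taken as the mean log2(CPM + 1) over the 32 genes, lay close together in the 6 genotypes. The 4 controls lay at 5.11, 5.14, 5.15 and 5.20, a mean of 5.15 ± 0.04 (SD, n = 4). The other group means were 5.12 ± 0.21 in Ezh2 +/- (n = 7), 5.04 ± 0.28 in Ezh2 -/- (n = 4), 5.20 ± 0.30 with JAK2V617F (n = 6), 5.07 ± 0.16 in JAK2V617F Ezh2 +/- (n = 8) and 5.10 ± 0.58 in JAK2V617F Ezh2 -/- (n = 6). No test was run on this mean. In each of the 3 JAK2V617F groups the mean was higher in batch 1 (5.55, 5.21 and 5.47) than in batch 2 (5.02, 4.99 and 4.73).

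**Figure D1:**
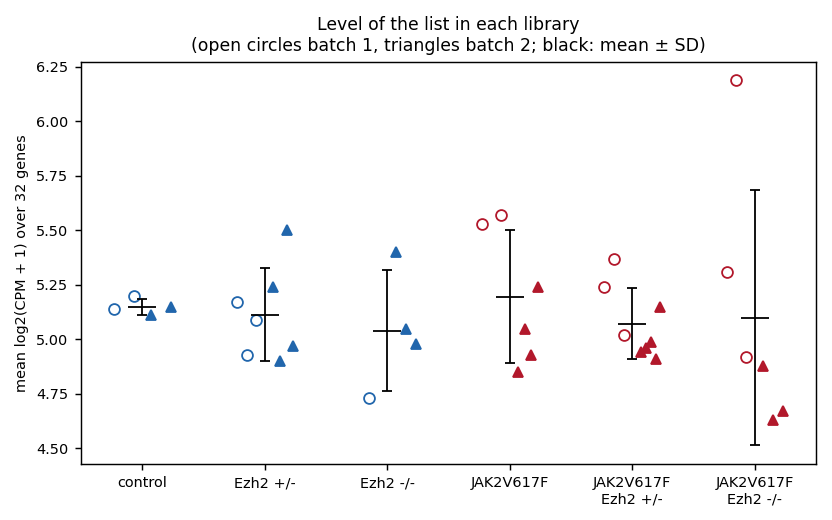
Mean log2(CPM + 1) over the 32 genes for each of the 35 libraries (vertical axis) by genotype (horizontal axis), with open circles for batch 1, triangles for batch 2 and black bars for mean ± SD. Group means lie between 5.04 and 5.20, and 1 JAK2V617F Ezh2 -/- library of batch 1 stands at 6.19.

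That library, JAK2V617F Ezh2 -/- batch 1 replicate 2, stood apart, with a list level of 6.19 against 4.63 to 5.31 in the other 5 of its genotype. It was the highest of its group for 22 of the 31 genes, compared with 19.8% of all genes. Its list level was examined for a wide gap to its group and was not flagged, while its F2r level was. Other groups leaned on 1 library too. Ezh2 -/- batch 2 replicate 1 was highest for 14 genes (24.7% of all genes) and JAK2V617F batch 1 replicate 1 for 14 (22.6%). JAK2V617F Ezh2 +/- batch 1 replicate 2 was highest for 13 (15.3%) and Ezh2 +/- batch 2 replicate 3 for 12 (15.5%). The JAK2V617F Ezh2 -/- library that stood apart held 1039.4 CPM of Pf4, 786.4 CPM of Plek (pleckstrin, a platelet kinase substrate), 582.2 CPM of Vwf, 531.1 CPM of Itga2b and 150.9 CPM of F2rl2. Its level of the LT-HSC marker list, 7.17, lay between the 7.19 and 7.30 of its batch mates and the group's lowest value of 6.96. Its 6 mast cell and basophil markers summed to 70.2 CPM against 5.9 and 2.61 in the other batch 1 libraries of the genotype, with 2 of the 6 at 0, and its 13 neutrophil and monocyte markers had a level of 7.13 against 5.98 and 5.08. Their part in the result was not tested. Results that rest on this library are given with and without it. It was singled out by its high level of these genes. Leaving it out therefore lowers its group's mean for most of them, so calls gained that way depend on that choice.

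JAK2V617F went with a mixed change of the platelet genes, some higher and some lower, when its effect was averaged over the 3 Ezh2 genotypes (20 libraries with it, 15 without). Of the 31 genes, 6 rose and 9 fell, 48.4% in all, in a comparison in which 25.3% of all genes passed (12.8% higher and 12.4% lower; edgeR quasi-likelihood test, adjusted p under 0.05). The genes that rose were the thrombin receptor genes F2r and F2rl2, the granule protein genes F5 and Pf4, the von Willebrand factor receptor chain Gp1ba, and Cd9. The genes that fell were Gng11, Rgs18, F2rl3, Mmrn1, Thbs1, Selp, Cavin2, Lat and Clec1b. The median log2 change of the 31 genes was 0.02, beside -0.01 for all 14945 genes.

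**Figure D2:**
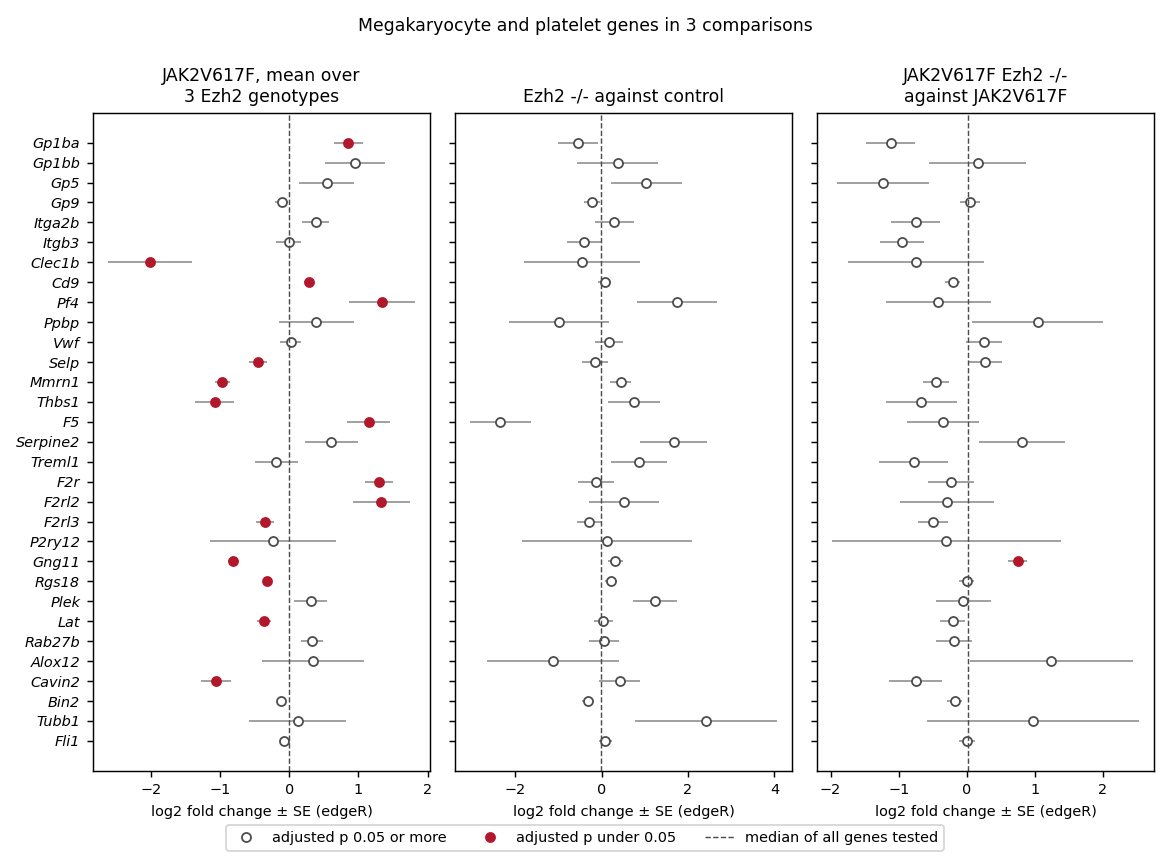
Log2 fold change ± SE (horizontal axis) of the 31 genes tested (vertical axis) for JAK2V617F averaged over 3 Ezh2 genotypes, Ezh2 -/- against control and JAK2V617F Ezh2 -/- against JAK2V617F. Filled red points have an edgeR adjusted p under 0.05, 15 in the first panel, 0 in the second and 1 (Gng11) in the third, and the dashed line is the median of all genes tested.

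The upstream sequences of 4 of the genes called in most comparisons are printed to show what lies before the start sites of genes that moved in opposite directions. They are the 250 bases before the RefSeq start of each gene in GRCm38.p6, a later build than that of the deposited counts, from a table that held 23 of the 32 genes and had no entry for Gng11, Rgs18 or Thbs1. Mmrn1 (chr6:60944067-60944316, plus strand) and Cavin2 (chr1:51288876-51289125, plus strand) fell with JAK2V617F, and F2r (chr13:95618467-95618716, minus strand) and Cd9 (chr6:125494761-125495010, minus strand) rose. Capitals mark matches, on either strand, to letters bound by GATA factors (AGATAA or TGATAA), ETS factors (CAGGAAG or CCGGAAG), RUNX factors (TGTGGT) or STAT factors (TTCNNNGAA), none of which overlapped another here.
Mmrn1: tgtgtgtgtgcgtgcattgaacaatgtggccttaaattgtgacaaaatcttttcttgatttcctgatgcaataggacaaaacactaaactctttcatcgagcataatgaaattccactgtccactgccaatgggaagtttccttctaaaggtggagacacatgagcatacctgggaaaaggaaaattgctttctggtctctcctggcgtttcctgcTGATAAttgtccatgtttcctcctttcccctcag
Cavin2: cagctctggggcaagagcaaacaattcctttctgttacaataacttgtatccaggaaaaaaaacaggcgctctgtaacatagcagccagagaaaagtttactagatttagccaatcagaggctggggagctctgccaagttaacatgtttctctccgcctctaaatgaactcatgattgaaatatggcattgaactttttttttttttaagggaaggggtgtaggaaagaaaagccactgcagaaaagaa
F2r: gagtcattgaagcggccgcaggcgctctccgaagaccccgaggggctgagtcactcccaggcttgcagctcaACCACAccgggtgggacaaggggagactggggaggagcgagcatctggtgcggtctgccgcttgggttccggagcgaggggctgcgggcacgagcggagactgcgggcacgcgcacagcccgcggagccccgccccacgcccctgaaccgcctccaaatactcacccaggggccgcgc
Cd9: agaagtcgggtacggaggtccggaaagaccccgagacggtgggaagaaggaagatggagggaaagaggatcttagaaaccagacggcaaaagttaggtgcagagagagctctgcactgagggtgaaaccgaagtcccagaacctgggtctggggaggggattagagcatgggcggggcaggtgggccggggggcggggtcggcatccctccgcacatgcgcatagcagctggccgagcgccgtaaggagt
Mmrn1 held a GATA match 34 to 29 bases before its start and F2r a RUNX match on the reverse strand 178 to 173 bases before its start, and Cavin2 and Cd9 held none of these letters. The base composition differed, with 42.4% G and C in Mmrn1, 40.4% in Cavin2, 70.8% in F2r and 61.6% in Cd9, around a median of 52.0% over the 27025 promoters of the table. GATA letters stood in 6 of the 23 promoters of the list (26.1%) and in 17% of all promoters, ETS letters in 3 (13%, beside 16.8%), RUNX letters in 2 (8.7%, beside 14.2%) and STAT letters in 1 (4.3%, beside 7.2%). These shares describe letters only.

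The G protein signalling genes held both the most consistent fall and the most consistent rise. Gng11 stood at 130.1, 138.4, 158.9 and 160.1 CPM in the 4 controls. Ezh2 +/- libraries ranged from 117.1 to 175.1 CPM with a median of 151.7, and the 4 Ezh2 -/- libraries had 152.2, 178.2, 192.5 and 198.5 CPM. With JAK2V617F, Gng11 ranged from 55.3 to 85.6 CPM (median 68.8), and in JAK2V617F Ezh2 +/- from 65.4 to 98.1 CPM (median 77.3). No library of these 2 groups reached the lowest library without JAK2V617F. In JAK2V617F Ezh2 -/- the range was 85.6 to 194.8 CPM (median 117.9), which overlapped the groups without JAK2V617F. Averaged over the Ezh2 genotypes, Gng11 fell by 0.81 ± 0.08 in log2 (SE; by edgeR, adjusted p = 1.58e-09), and the difference was -1.04 in batch 1 and -0.66 in batch 2.

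F2r moved the other way. It encodes the thrombin receptor PAR1, while on mouse platelets thrombin acts through the products of F2rl2 and F2rl3 (below). The controls had 95.4, 122.8, 137.7 and 143.3 CPM of F2r, and the Ezh2 -/- libraries 75.7, 80.9, 112.4 and 122.5 CPM. Ezh2 +/- libraries spread from 45.3 to 254.1 CPM around a median of 144.8. With JAK2V617F, F2r lay between 213.0 and 368.4 CPM (median 302.3), with JAK2V617F Ezh2 +/- between 202.7 and 482.3 CPM (median 282.3), and with JAK2V617F Ezh2 -/- between 162.8 and 666.0 CPM (median 222.5). Each of the 20 JAK2V617F libraries was above the 4 controls and the 4 Ezh2 -/- libraries, but 12 of the 20 were above all 15 libraries without JAK2V617F. The averaged log2 change was 1.30 ± 0.20 (SE; edgeR adjusted p = 1.75e-05), 1.78 in batch 1 and 1.0 in batch 2.

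The related receptor genes did not move together. F2rl2 (PAR3, the cofactor for thrombin on mouse platelets) rose by 1.33 ± 0.41 (edgeR adjusted p = 0.0158), and F2rl3 (PAR4, the receptor that signals thrombin there) fell by 0.35 ± 0.13 in log2 (edgeR adjusted p = 0.0389). The F2rl3 call was lost without any 1 of 15 of the 35 libraries, with an adjusted p of up to 0.114, and without the library that stood apart the change was -0.34 (edgeR adjusted p = 0.0543). The F2rl2 change was 2.51 in batch 1 and 0.25 in batch 2, and without the JAK2V617F Ezh2 -/- library that stood apart it was 1.03 (edgeR adjusted p = 0.0222). Rgs18 fell by 0.32 ± 0.06 (edgeR adjusted p = 0.000231), from control values of 652.5, 658.8, 863.7 and 934.3 CPM to medians of 485.3, 561.3 and 623.6 CPM in the 3 JAK2V617F groups. P2ry12, with 97 counts over the 6 JAK2V617F Ezh2 -/- libraries, had a log2 change of -0.23 ± 0.91 (edgeR adjusted p = 0.899).

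Among the granule and secreted proteins, Mmrn1 showed the clearest difference. Controls had 520.7, 544.5, 568.2 and 588.2 CPM and Ezh2 -/- libraries 573.1, 601.7, 733.2 and 784.3 CPM, while Ezh2 +/- libraries ran from 445.0 to 950.9 CPM (median 579.4). JAK2V617F libraries ran from 237.8 to 481.5 CPM (median 366.2), JAK2V617F Ezh2 +/- from 198.7 to 401.6 CPM (median 310.7) and JAK2V617F Ezh2 -/- from 193.1 to 514.7 CPM (median 216.8). In all, 17 of the 20 libraries with JAK2V617F were below all 15 without it. Mmrn1 fell by 0.97 ± 0.11 in log2 (SE; by edgeR, adjusted p = 3.18e-08), and the difference was -0.58 in batch 1 and -1.19 in batch 2.

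Thbs1, which encodes the adhesive granule protein thrombospondin, fell by 1.08 ± 0.28 (edgeR adjusted p = 0.00442). The gene of P-selectin, Selp, fell by 0.45 ± 0.13 (edgeR adjusted p = 0.0112). F5, coagulation factor V, rose by 1.15 ± 0.31 (edgeR adjusted p = 0.00571), although its levels with JAK2V617F (7.18 to 27.3 CPM, median 13.3) covered those of the controls (9.4, 11.4, 13.2 and 19.8 CPM). The averaged difference was 2.98 in batch 1 and 0.83 in batch 2. In batch 1, Ezh2 -/- was represented by 1 library, with 2 counts of F5 (0.092 CPM). The controls of batch 1 had 13.2 and 19.8 CPM and the JAK2V617F libraries 11.3 and 27.3 CPM, which overlapped. Ezh2 +/- libraries of batch 1 had 10.3, 10.9 and 16.9 CPM and JAK2V617F Ezh2 +/- libraries 13.5, 24.6 and 29.5 CPM. The 4 Ezh2 -/- libraries had 0.092, 1.41, 1.53 and 4.56 CPM, all below every control. Low values also occurred in 1 Ezh2 +/- library (3.29 CPM) and 1 JAK2V617F Ezh2 -/- library (2.57 CPM).

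Pf4, the platelet chemokine, was the most variable gene of the list. Controls had 45.9, 47.3, 55.0 and 58.3 CPM and Ezh2 -/- libraries 40.7, 50.1, 58.7 and 281.7 CPM, and Ezh2 +/- ranged from 15.9 to 344.3 CPM (median 37.0). JAK2V617F libraries ranged from 20.5 to 497.7 CPM (median 185.6), JAK2V617F Ezh2 +/- from 46.7 to 185.0 CPM (median 93.1) and JAK2V617F Ezh2 -/- from 46.8 to 1039.4 CPM (median 93.8). The groups overlapped throughout. Its averaged rise of 1.34 ± 0.48 (edgeR adjusted p = 0.0403) was 2.81 in batch 1 and 0.24 in batch 2, and without the library that stood apart it was 1.03 (edgeR adjusted p = 0.0683). The call was also lost without any 1 of 13 other libraries, with adjusted p up to 0.0945. Ppbp, the other platelet chemokine gene of the list, had a change of 0.39 ± 0.54 (edgeR adjusted p = 0.654).

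Vwf did not pass the test in the averaged comparison, with a log2 change of 0.02 ± 0.15 (edgeR adjusted p = 0.961), but its batches went opposite ways. The controls had 131.5 and 146.0 CPM in batch 2 and 168.1 and 213.8 CPM in batch 1. The 2 JAK2V617F libraries of batch 1 had 232.7 and 283.1 CPM, and the 4 of batch 2 had 71.5, 74.4, 101.4 and 131.2 CPM. Ezh2 -/- libraries had 77.0, 113.4, 130.5 and 195.6 CPM, Ezh2 +/- ranged from 160.0 to 272.5 CPM (median 220.1), JAK2V617F Ezh2 +/- from 93.6 to 340.2 CPM (median 121.0) and JAK2V617F Ezh2 -/- from 79.3 to 582.2 CPM (median 170.8). The JAK2V617F difference of Vwf was 0.71 in batch 1 and -0.40 in batch 2. Serpine2 (0.61 ± 0.38, edgeR adjusted p = 0.255) and Treml1, a granule membrane receptor (-0.19 ± 0.31, edgeR adjusted p = 0.705), did not pass.

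The 4 genes of the von Willebrand factor receptor were unequal in level and in change. Gp1ba, its ligand-binding chain, had 8.71, 12.1, 14.5 and 15.9 CPM in controls and 6.39, 7.72, 7.94 and 12 CPM in Ezh2 -/-, with 4.14 to 19.6 CPM in Ezh2 +/- (median 13.5). All 6 JAK2V617F libraries were above the controls, at 23.8 to 31.3 CPM (median 25.7). JAK2V617F Ezh2 +/- ranged from 11.3 to 40.7 CPM (median 22.2) and JAK2V617F Ezh2 -/- from 7.13 to 25.7 CPM (median 10.2), both overlapping the controls. Gp1ba rose by 0.85 ± 0.21 on average (edgeR adjusted p = 0.00263), 1.20 in batch 1 and 0.66 in batch 2. Gp1bb (0.95 ± 0.43), Gp5 (0.54 ± 0.40) and Gp9 (-0.11 ± 0.09) did not pass, with edgeR adjusted p of 0.108, 0.36 and 0.41.

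Of the other surface receptors, Cd9 rose and Clec1b fell. Cd9 stood at 214.9, 260.1, 268.4 and 280.9 CPM in controls and 231.5, 246.4, 248.5 and 298.7 CPM in Ezh2 -/-, with 185.1 to 293.3 CPM in Ezh2 +/- (median 248.5). It ranged from 265.4 to 372.6 CPM (median 296.8) with JAK2V617F, from 262.3 to 325.6 CPM (median 286.3) in JAK2V617F Ezh2 +/- and from 249.4 to 362.4 CPM (median 263.8) in JAK2V617F Ezh2 -/-. The groups overlapped, and the averaged rise was 0.28 ± 0.07 (edgeR adjusted p = 0.00158). Clec1b, the podoplanin receptor CLEC-2, was low everywhere: at most 8.48 CPM without JAK2V617F and 2.86 CPM with it. It fell by 2.01 ± 0.61 (edgeR adjusted p = 0.0133), with an averaged difference of -0.23 in batch 1 and -1.97 in batch 2. In batch 1 the genotypes differed. Ezh2 +/- libraries had 3.66, 6.07 and 6.69 CPM and JAK2V617F Ezh2 +/- libraries 0, 0 and 0.0955 CPM. The 1 Ezh2 -/- library had 0 CPM and JAK2V617F Ezh2 -/- libraries 0, 1.22 and 1.65 CPM. Controls had 1.59 and 7.74 CPM and JAK2V617F libraries 2.27 and 2.86 CPM.

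The fibrinogen receptor genes did not pass by edgeR with all libraries in the fit. Itga2b, which encodes CD41, had 122.0, 154.1, 169.6 and 317.5 CPM in controls, 102.5, 124.4, 173.4 and 244.2 CPM in Ezh2 -/- and 64.4 to 323.1 CPM in Ezh2 +/- (median 110.4). Its range was 153.1 to 340.6 CPM (median 218.9) with JAK2V617F, 146.6 to 256.9 CPM (median 169.6) in JAK2V617F Ezh2 +/- and 76.4 to 531.1 CPM (median 117.2) in JAK2V617F Ezh2 -/-. The groups overlapped. The averaged log2 change was 0.38 ± 0.20 for Itga2b (edgeR adjusted p = 0.181) and -0.01 ± 0.18 for Itgb3 (edgeR adjusted p = 0.984). Without Ezh2 +/- batch 2 replicate 3, the highest library of its group at 323.1 CPM, Itga2b passed as higher with JAK2V617F, by 0.50 averaged (edgeR adjusted p = 0.0266) and by 0.95 in Ezh2 +/- cells (edgeR adjusted p = 0.0191).

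Adaptor, vesicle and structural genes divided likewise. Lat, an adaptor of immune-type receptor signalling, fell by 0.37 ± 0.10 (edgeR adjusted p = 0.00715), and 14 of the 20 JAK2V617F libraries were below all 15 others. Cavin2, a caveola coat protein, fell by 1.06 ± 0.22 (edgeR adjusted p = 0.000573). Plek (0.31 ± 0.24), the granule GTPase gene Rab27b (0.33 ± 0.16), Alox12 (0.34 ± 0.74), Bin2 (-0.12 ± 0.06), Tubb1 (0.12 ± 0.70) and Fli1 (-0.07 ± 0.07) did not pass. Their edgeR adjusted p lay between 0.12 for Rab27b and 0.936 for Tubb1.

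**Figure D3:**
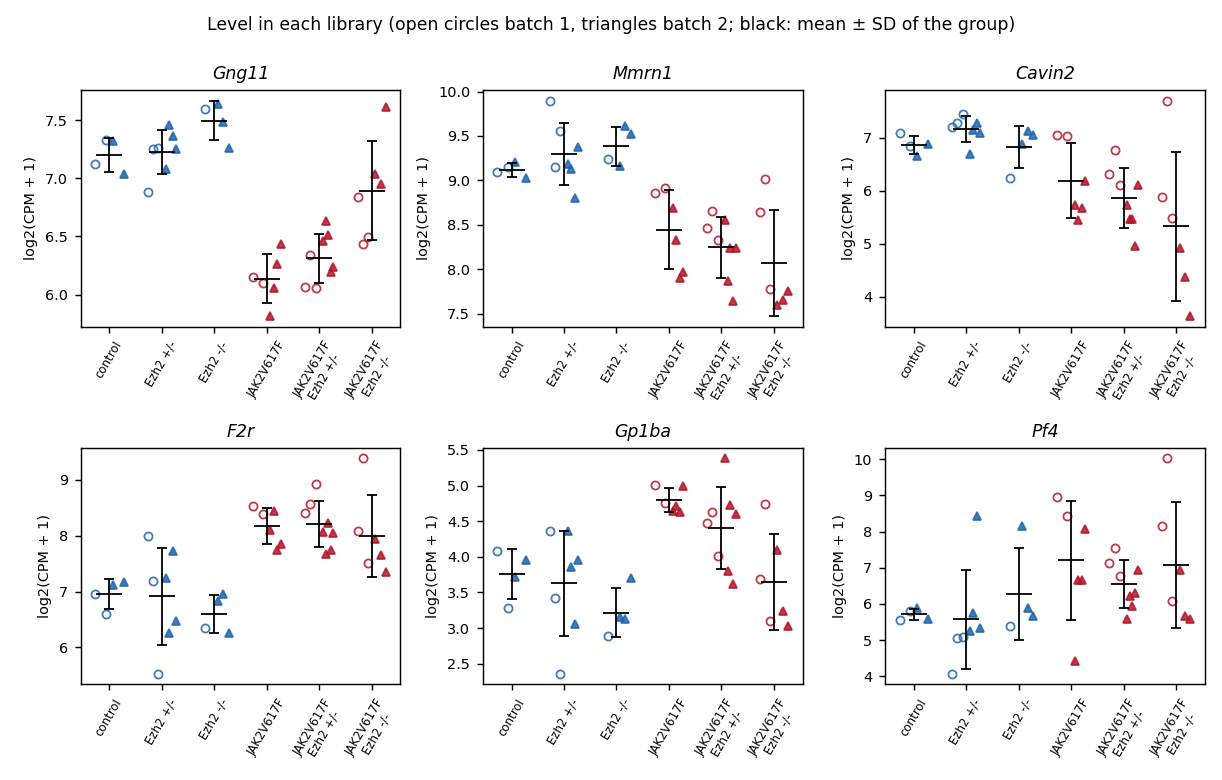
Log2(CPM + 1) of Gng11, Mmrn1, Cavin2, F2r, Gp1ba and Pf4 in each library by genotype, with open circles for batch 1, triangles for batch 2, blue without and red with JAK2V617F, and black bars for mean ± SD. Gng11 and Mmrn1 are lower with JAK2V617F and F2r is higher, the 2 batches of Cavin2 lie apart in the red groups, and Pf4 spreads widely.

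The estimated JAK2V617F difference was higher in experimental batch 1 than in batch 2 for 25 of the 31 genes, but 1 gene passed a test of this. That gene was Cavin2, whose batches did not differ in every genotype alike. In batch 1, Cavin2 stood at 114.0 and 134.3 CPM in controls and 129.8 and 132.2 CPM with JAK2V617F, so the pairs overlapped. In batch 2, it stood at 99.1 and 116.9 CPM in controls and 42.6, 50.1, 52.2 and 71.2 CPM with JAK2V617F, all lower. JAK2V617F Ezh2 -/- libraries had 43.6, 58.1 and 206.3 CPM in batch 1, the last in the library that stood apart, and 11.4, 19.8 and 29.1 CPM in batch 2. Ezh2 -/- libraries had 74.8 CPM in batch 1, from 1 library, and 117.0, 131.8 and 139.1 CPM in batch 2. With 1 Ezh2 allele, Cavin2 was lower with JAK2V617F in both batches. In batch 1 it stood at 146.2, 154.4 and 174.1 CPM without and 68.1, 78.7 and 107.5 CPM with JAK2V617F, a log2 change of -0.81 in that batch alone. In batch 2 it ranged from 101.8 to 154.3 CPM without and from 29.9 to 67.9 CPM with JAK2V617F, a log2 change of -1.43 in that batch alone.

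In a fit with a separate mean for each genotype and batch, the averaged JAK2V617F difference of Cavin2 was -0.01 in batch 1 and -1.71 in batch 2. These differed by 1.69 ± 0.36 in log2 (SE; by edgeR, adjusted p = 0.0443), and Cavin2 was the 1 gene of the list among 17 called over all genes, which is 0.114%. With no term for sex, 2 genes of the list and 104 of all genes were called, and the Cavin2 difference was 1.61. The difference was 1.34 without the library that stood apart (edgeR adjusted p = 0.0232) and lay between 1.34 and 1.89 whichever of 34 libraries was left out. Ezh2 -/- batch 1 replicate 1 was not left out, since it is the only library of its genotype in batch 1. The adjusted p passed 0.05 in 10 of these 34 fits, those without Ezh2 +/- batch 1 replicate 1 or batch 2 replicate 1, JAK2V617F batch 2 replicate 4, JAK2V617F Ezh2 +/- batch 1 replicate 3 or batch 2 replicates 4 or 5, or JAK2V617F Ezh2 -/- batch 1 replicates 1, 2 or 3 or batch 2 replicate 1. In the other 24 it was up to 0.145.

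The other genes leaned the same way without passing. For 25 of the 31 genes the JAK2V617F difference was higher in batch 1 than in batch 2, with a median batch difference of 0.72, while the median over all genes was -0.00. An unadjusted p under 0.05 was found for 16 of the 31 genes, or 51.6%, and for 10.3% of all genes. The batch difference was 1.11 ± 0.29 for Vwf (edgeR adjusted p = 0.137), 2.14 ± 0.65 for F5 (0.194), 2.26 ± 0.69 for F2rl2 (0.2), 2.58 ± 0.94 for Pf4 (0.294), 0.61 ± 0.23 for Mmrn1 (0.296) and 1.31 ± 0.50 for Plek (0.32). Gng11 went the other way, with -0.38 ± 0.16 (edgeR adjusted p = 0.416), so that its fall was larger in batch 1. Leaving out any 1 of the same 34 libraries left 12 to 19 genes of the list at an unadjusted p under 0.05, beside 9.29% to 11.4% of all genes. Ezh2 -/- batch 1 replicate 1, which could not be left out, was lowest of its group for 13 of the 31 genes (beside 32.7% of all genes). How far the batch difference of the list rests on that library was not tested. Sex was a term of this fit, but the JAK2V617F libraries of batch 1 were female and those of batch 2 male, and for that genotype batch and sex cannot be told apart.

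**Figure D4:**
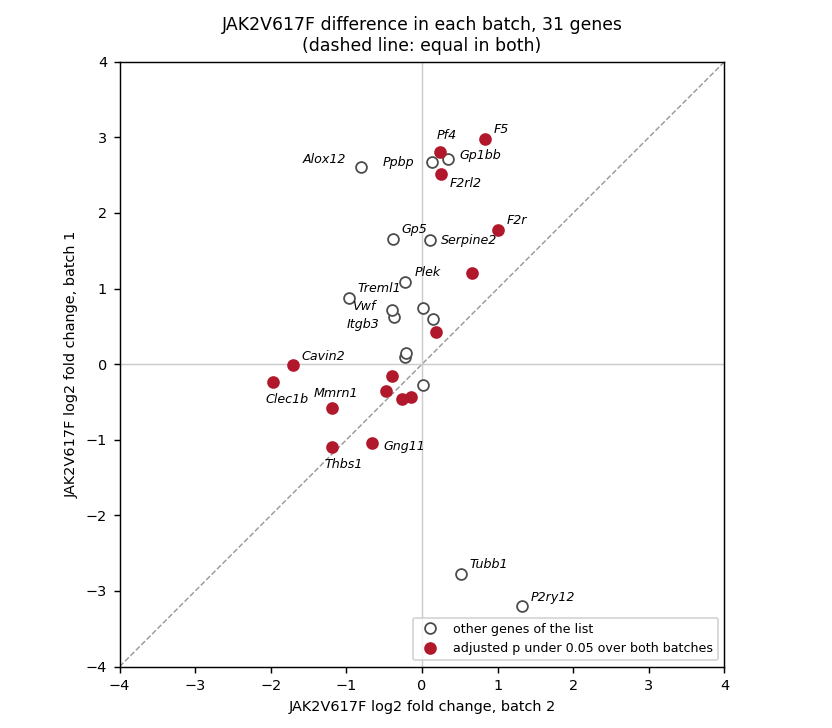
Averaged JAK2V617F log2 fold change in batch 2 (horizontal axis) and batch 1 (vertical axis) for the 31 genes, with filled red points for genes called over both batches and the dashed line for equal values. Points of 25 genes lie above the line, with Cavin2 at -1.71 and -0.01, Pf4 at 0.24 and 2.81, and Gng11 below the line at -0.66 and -1.04.

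With normal Ezh2, JAK2V617F against control changed 2 of the 31 genes, where 4.22% of all genes passed. Gng11 fell by 0.99 ± 0.16 in log2 (SE; by edgeR, adjusted p = 0.000245), from 146.9 ± 15 to 70.0 ± 10.2 CPM (SD, n = 4 and 6). F2r rose by 1.42 ± 0.40 (edgeR adjusted p = 0.0379), from 124.8 ± 21.4 to 293.5 ± 64.6 CPM, and the groups of both genes did not overlap. The F2r call was lost without either control of batch 1, either JAK2V617F library of batch 1, or replicate 2 of control or JAK2V617F in batch 2, with an adjusted p of up to 0.123. Gp1ba, whose groups did not overlap either, had a change of 1.17 ± 0.42 (edgeR adjusted p = 0.107). Within batches alone the Gng11 change was -1.04 in batch 1 and -0.79 in batch 2, and the F2r change 1.76 and 1.34.

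In Ezh2 -/- cells, JAK2V617F went with 2 higher genes and 5 lower genes, where 4.84% of all genes passed (2.86% higher and 1.97% lower). Mmrn1 fell by 1.40 ± 0.22 (edgeR adjusted p = 8.92e-05), and all 6 libraries with JAK2V617F were below the 4 without. Rgs18 (-0.47 ± 0.12), Gng11 (-0.56 ± 0.16), Cavin2 (-1.56 ± 0.44) and Thbs1 (-1.87 ± 0.54) fell as well, and F5 (2.44 ± 0.66) and F2r (1.32 ± 0.40) rose, with edgeR adjusted p between 0.021 and 0.0488. Of the 7, Mmrn1 passed whichever of the 10 libraries was left out, and each of the other 6 lost its call without at least 2 of them, so that 2 to 5 genes passed. Without the library that stood apart, Cavin2 was lower by a log2 change of -2.19 (edgeR adjusted p = 1.18e-05), while Gng11 (-0.50, 0.0602) and F2r (1.01, 0.0969) did not pass. Cavin2 had a change of 0.69 in batch 1 alone and -2.63 in batch 2 alone.

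In Ezh2 +/- cells, 2 genes were higher and 4 lower with JAK2V617F, where 9.05% of all genes passed (4.88% higher and 4.18% lower). Gng11 fell by 0.89 ± 0.12 (edgeR adjusted p = 5.02e-06) and Mmrn1 by 0.99 ± 0.17 (edgeR adjusted p = 0.00012), and for both all 8 libraries with JAK2V617F were below the 7 without. Cavin2 (-1.24 ± 0.33, edgeR adjusted p = 0.0133) and Clec1b (-3.23 ± 1.04, edgeR adjusted p = 0.0434) fell, and F2r (1.14 ± 0.30, edgeR adjusted p = 0.0122) and Cd9 (0.32 ± 0.10, edgeR adjusted p = 0.0296) rose. Clec1b and Cd9 lost their calls without the 2 doubted Ezh2 +/- libraries. Clec1b also lost its call without any 1 of 11 of the 15 libraries, with adjusted p up to 0.0881, and Cd9 without any 1 of 5, up to 0.086 (Ezh2 +/- batch 1 replicates 1 and 3, and JAK2V617F Ezh2 +/- batch 1 replicate 2 and batch 2 replicates 4 and 5).

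Without JAK2V617F, none of the 31 genes passed the test on loss of 1 or both Ezh2 alleles. For Ezh2 -/- against control 0.00669% of all genes passed, and for Ezh2 +/- against control 0%. At an unadjusted p under 0.05 there were 4 genes of the list in the first comparison (12.9%, beside 5.96% of all genes) and 2 in the second (6.45%, beside 5.17%). The smallest p in Ezh2 -/- was that of F5, with a log2 change of -2.34 ± 0.70 (edgeR adjusted p = 0.57), followed by Plek at 1.24 ± 0.51 (0.798) and Bin2 at -0.31 ± 0.14 (0.825). F5 was the gene of the list whose 4 Ezh2 -/- libraries were all far below the controls, and DESeq2's Wald test gave the same change an adjusted p of 0.0431. In Ezh2 +/-, Vwf had a change of 0.68 ± 0.29 (edgeR adjusted p = 0.952), Tubb1 3.27 ± 1.51 (0.956) and Ppbp -1.88 ± 1.0 (0.97). DESeq2's Wald test called 1 and 0 genes of the list in these comparisons, and limma-voom 0 and 0.

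With JAK2V617F present, loss of both Ezh2 alleles went with a higher level of 1 gene, Gng11, where 0.475% of all genes passed. Gng11 rose by 0.75 ± 0.14 (SE; edgeR adjusted p = 0.00417), from 70.0 ± 10.2 to 122.6 ± 39.6 CPM (SD, n = 6 and 6). It was above every JAK2V617F library in 5 of the 6 JAK2V617F Ezh2 -/- libraries, and the change was 0.44 in batch 1 alone and 0.91 in batch 2 alone. Without the library that stood apart, more genes passed: Cavin2 (-1.45, edgeR adjusted p = 0.00292), Itgb3 (-1.39, 0.00376) and Gp1ba (-1.44, 0.0498) were lower in JAK2V617F Ezh2 -/-, beside Gng11, and Itga2b had a change of -1.18 (edgeR adjusted p = 0.0592). With it, the changes were -0.75 ± 0.39 for Cavin2, -0.95 ± 0.32 for Itgb3, -1.12 ± 0.36 for Gp1ba and -0.75 ± 0.36 for Itga2b, with edgeR adjusted p from 0.255 to 0.745. At an unadjusted p under 0.05 there were 6 genes of the list with that library (19.4%, beside 7.13% of all genes). Without that library there were 14 (45.2%, beside 7.38% of all genes). It was chosen for its high level of these genes, so lower values without it follow in part from that choice. By limma-voom with quality weights and all libraries, Itgb3 (-1.29, adjusted p = 0.00923), Gp1ba (-1.42, 0.0211), Itga2b (-1.05, 0.0373) and Cavin2 (-1.32, 0.0385) passed as lower.

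On loss of 1 Ezh2 allele with JAK2V617F present no gene of the list passed, and 0% of all genes did. The smallest p were those of Rab27b (-0.50 ± 0.24), Selp (0.43 ± 0.21) and F2rl3 (-0.33 ± 0.20), each with an edgeR adjusted p of 1. At an unadjusted p under 0.05 there was 1 gene of the list (3.23%, beside 3.87% of all genes), and DESeq2 and limma-voom called 0.

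Against control, JAK2V617F Ezh2 -/- differed in 1 gene of the list, where 5.48% of all genes passed. Mmrn1 fell by 0.96 ± 0.20 (SE; edgeR adjusted p = 0.00308), from 555.4 ± 29.2 to 290.0 ± 134.7 CPM (SD, n = 4 and 6), and all 6 libraries were below the controls. Without the library that stood apart, Cavin2 (-1.85, edgeR adjusted p = 7.68e-05) and Itgb3 (-1.21, edgeR adjusted p = 0.00878) passed as lower too. At an unadjusted p under 0.05 there were 12 genes of the list with that library (38.7%, beside 19.4% of all genes). Without that library there were 9 (29%, beside 17.2% of all genes). A 2nd gene passed on leaving out JAK2V617F Ezh2 -/- batch 1 replicate 3 or batch 2 replicate 3 (F2r), or JAK2V617F Ezh2 -/- batch 2 replicate 1 or control batch 2 replicate 4 (F2rl3). F2r had a change of 1.19 ± 0.38 (edgeR adjusted p = 0.0585), with all 6 libraries above the controls, and F2rl3 -0.75 ± 0.23 (edgeR adjusted p = 0.0529). By limma-voom with quality weights and all libraries, Cavin2 (-1.73, adjusted p = 0.000728) and Itgb3 (-1.11, 0.0117) passed as lower and F2r (0.95, 0.0495) as higher.

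No gene of the list passed the interaction test, which compares the effect of losing both Ezh2 alleles with and without JAK2V617F, and 0.00669% of all genes did. The smallest p were those of Mmrn1 (-0.89 ± 0.33, edgeR adjusted p = 0.689), F5 (1.99 ± 0.94, 0.907) and Gp5 (-2.27 ± 1.13, 0.934). At an unadjusted p under 0.05 there were 2 genes of the list (6.45%, beside 5.41% of all genes), and DESeq2 and limma-voom called 0. This ranking and count rested on the library that stood apart. Without it, 10 genes of the list had an unadjusted p under 0.05 (32.3%, beside 5.68% of all genes) and 0 passed after adjustment. The smallest p were then those of Cavin2 (-1.78, edgeR adjusted p = 0.168), Plek (-1.84, 0.265) and Mmrn1 (-1.05, 0.299). As above, the library left out was chosen for its high level of these genes. The comparisons above share groups, the controls and the JAK2V617F libraries among them, so their values are set side by side and are not independent.

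Other genes of platelet formation changed in both directions in the averaged comparison, in which 25.3% of all genes passed (12.8% higher and 12.4% lower). Of 23 regulators of the megakaryocyte lineage, most of them transcription factors, 2 rose and 9 fell with JAK2V617F (47.8% called, median log2 change -0.17). Gata1, the erythroid and megakaryocyte factor, was higher by 1.71 ± 0.25 (edgeR adjusted p = 5.01e-06), and Lmo2 (-0.63 ± 0.06, 1.32e-09) and Meis1 (-0.27 ± 0.05, 2.43e-05) were lower. Of 38 platelet signalling genes tested, 9 rose and 8 fell (44.7% called, median -0.08). The kinase genes Btk (0.67 ± 0.08, edgeR adjusted p = 3.98e-08) and Syk (0.52 ± 0.07, 1.36e-06) and the exchange factor gene Rasgrp2 (0.55 ± 0.09, 2.91e-05) rose, and Fcer1g, the signalling chain of the collagen receptor, fell by 1.02 ± 0.18 (6.17e-05).

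Of 34 granule and secretion genes tested, 5 rose and 6 fell (32.4% called, median 0.04), a share near the 25.3% of all genes. Dtnbp1 (1.04 ± 0.10, edgeR adjusted p = 2.16e-09), Ecm1 (0.94 ± 0.11, 7.52e-08) and the membrane fusion gene Snap23 (0.39 ± 0.07, 2.66e-05) rose, and Nbeal2, which megakaryocytes need to form alpha granules, fell by 0.63 ± 0.07 (6.77e-08). Of 28 cytoskeletal genes of proplatelet formation, 8 rose and 2 fell (35.7% called, beside 25.3% of all genes, median 0.12). Filamin A (Flna, 0.48 ± 0.08, edgeR adjusted p = 1.8e-05) and Tuba4a (0.36 ± 0.07, 0.000412) rose, and Mylk (-1.22 ± 0.13, 1.96e-08) and Diaph1 (-0.38 ± 0.06, 2.06e-05) fell. With JAK2V617F present, Fyb (-0.73 ± 0.16, edgeR adjusted p = 0.0192), Itga2 (-3.68 ± 0.90, 0.0489) and Diaph1 (-0.49 ± 0.11, 0.0259) of these 4 lists were lower on loss of both Ezh2 alleles and 0 were higher. For loss of both alleles without JAK2V617F, 0 genes of the 4 lists passed.

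Markers of other cell types and states moved with JAK2V617F beside the platelet genes. In the averaged comparison, beside the 25.3% of all genes that passed, 8 of 12 LT-HSC markers fell and none rose, all 10 proliferation markers rose, 6 of 10 erythroid markers fell and 1 rose, and 3 of 5 mast cell and basophil markers tested rose. None of 13 neutrophil and monocyte markers passed by edgeR's test (2 had an unadjusted p under 0.05), and their summed level ran from 835.7 to 8093.2 CPM without JAK2V617F and from 1016.6 to 17922.6 CPM with it. The summed mast cell and basophil markers ran from 0 to 19.6 CPM without JAK2V617F and from 1.67 to 70.2 CPM with it. Of the lymphoid markers tested, 2 of 6 passed (33.3%), and of the endothelial markers tested, 0 of 5. The part of these cells in the platelet gene differences was not tested.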

How the data were processed

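The 35 libraries were made from LT-HSC RNA, and the authors deposited 1 table of raw read counts per gene, whole numbers that were not normalized, with a gene length beside them. Reads were aligned with STAR to mm9, per the submitters' processing notes; for the versions, the counting tool, its strand setting and the annotation nothing was given in the sources used here, so overlapping and antisense genes cannot be told apart. Totals were 13.6 M to 48.6 M (megareads) per library, and 0 pairs of libraries were identical.

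The deposited counts were tested with edgeR 4.0.16 in R 4.3.3 (TMM scaling, factors 0.937 to 1.062; filterByExpr by genotype; robust quasi-likelihood test; terms for genotype, batch and sex; all 35 libraries; 27 residual degrees of freedom; Benjamini-Hochberg adjustment over 14945 genes). CPM are counts divided by the library total and scaled alike in all libraries, per kilobase where genes are compared. limma 3.58.1 and DESeq2 1.42.0 served as alternatives, as did other filters, batches, sexes and left-out libraries. The edgeR fit was tested on simulated data. Figures were drawn with matplotlib 3.10.9.

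The genes and lists were chosen with earlier results of these data known. Every gene called is named in each comparison, or the 3 of smallest p where none was. Values per library are given for the genes called most often and for Vwf, Itga2b, Pf4, Gp1ba and Cd9, and up to 4 genes of each other list are named. A result for 1 gene of these lists is not reported here. Promoters come from the RefSeq table for GRCm38.p6. The test of batch differences was chosen after seeing the data.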

Additional observations from a re-analysis of the deposited data

Results flagged for a closer look

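In 114 groups of libraries examined for 1 value far from the rest, 4 were found, and chance gives about 1 in 20 groups. In JAK2V617F Ezh2 -/-, batch 1 replicate 2 had 666.0 CPM of F2r, and its gap to the next library was 0.646 of the group's range. In Ezh2 +/-, batch 2 replicate 3 had 344.3 CPM of Pf4 (gap 0.616 of the range) and 323.1 CPM of Itga2b (gap 0.623), both high. In control, batch 2 replicate 4 had 77.2 CPM of Selp, low by a gap of 0.880 of the range. The JAK2V617F effect on Cavin2 differed between the batches by 1.69 on the log2 scale, by a test of the difference itself.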

How the results depend on the processing

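For the genes called in a comparison, or the 3 of smallest p where none was, 1390 values under an alternative were computed: 1183 kept their direction and side of the threshold, 203 lost their call, 1 gained one and 3 reversed. Over all genes of the list, 51 calls of 17 genes were made only under an alternative. The 1390 values include those of the batch difference of Cavin2, from the fit with a mean per genotype and batch. Over the alternatives other than that fit, the averaged JAK2V617F change lay between -0.96 and -0.65 for Gng11 and between -1.19 and -0.54 for Mmrn1. Those that reversed were F2rl3 for 1 Ezh2 allele lost with JAK2V617F, 0.12 in females alone, and Cavin2 in batch 1 alone, 0.69 for JAK2V617F in Ezh2 -/- and 0.01 averaged. The cause was not tested.

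Counts of listed genes called moved by over 1.5 times as follows. JAK2V617F against control (2 called) gave 1 with no low-count filter, 1 in batch 1 alone, 0 in batch 2 alone, 1 in females alone and 4 without the 2 doubted libraries. Ezh2 -/- against control (0) gave 1 by DESeq2's Wald test and 1 with the compared groups alone. JAK2V617F Ezh2 -/- against JAK2V617F (1) gave 0 in batch 1 alone, 2 in batch 2 alone, 0 in females alone, 0 with the compared groups alone and 5 by limma-voom with quality weights. JAK2V617F Ezh2 -/- against Ezh2 -/- (7) gave 4 with no low-count filter and 0 in batch 1 alone, in females alone and with the compared groups alone. JAK2V617F Ezh2 +/- against Ezh2 +/- (6) gave 1 in batch 1 alone and 3 in females alone. JAK2V617F Ezh2 -/- against control (1) gave 2 with DESeq2 size factors, 4 by DESeq2's Wald test, 4 by limma-voom, 0 in batch 1 alone, 3 in batch 2 alone, 2 in females alone, 2 without the doubted libraries and 0 with the compared groups alone. The averaged effect (15) gave 4 in batch 1 alone, 9 in batch 2 alone and 4 in females alone. The difference between batches (1) gave 2 with no term for sex. The averaged effect was not run with compared groups alone, since it uses all 6 groups.

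Replicate numbers showed no sign of pairing in what was left after genotype, batch and sex were fitted. There, 69 same-numbered pairs had a mean correlation of -0.04 (-0.18 to 0.08), beside -0.03 (-0.19 to 0.12) for 192 other-numbered pairs. Of the 35 libraries, 7 correlated best with their own number, and the share given by chance was not computed. With the replicate block, 4 genes were called in JAK2V617F against control, 4 in JAK2V617F Ezh2 -/- against Ezh2 -/- and 4 in JAK2V617F Ezh2 -/- against control.

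Leaving out 1 library gave 1 to 3 genes for JAK2V617F against control, 1 to 4 for JAK2V617F Ezh2 -/- against JAK2V617F, 2 to 5 against Ezh2 -/- and 1 to 3 against control, 4 to 7 for JAK2V617F Ezh2 +/- against Ezh2 +/-, 13 to 16 for the averaged effect and 0 elsewhere. Over all genes the alternatives called 38 to 1003 for JAK2V617F against control, 1 to 193, 3 to 1117 and 111 to 1211 for JAK2V617F Ezh2 -/- against JAK2V617F, Ezh2 -/- and control, 176 to 1710 for JAK2V617F in Ezh2 +/- and 576 to 4087 for the averaged effect. They called 0 to 97 and 0 to 64 for Ezh2 -/- and Ezh2 +/- against control, 0 to 44 for JAK2V617F Ezh2 +/- against JAK2V617F and 0 to 92 for the interaction.

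The list level with log2(CPM + 0.1) was 4.82 in control, 4.77 in Ezh2 +/-, 4.66 in Ezh2 -/-, 4.87 with JAK2V617F, 4.74 in JAK2V617F Ezh2 +/- and 4.78 in JAK2V617F Ezh2 -/-. Over genes with a mean of at least 1 CPM it was 5.46, 5.44, 5.35, 5.53, 5.38 and 5.42. In batch 1 alone it was 4.73 in Ezh2 -/- and 5.55 with JAK2V617F. Leaving out 1 library gave 5.13 to 5.16 in control, 5.05 to 5.15 in Ezh2 +/-, 4.92 to 5.14 in Ezh2 -/-, 5.12 to 5.27 with JAK2V617F, 5.03 to 5.10 in JAK2V617F Ezh2 +/- and 4.88 to 5.19 in JAK2V617F Ezh2 -/-. Genes with few counts, such as P2ry12, Tubb1 and Alox12, have libraries at 0, and none of those named here passed in any comparison. How large a difference could have been detected in them was not tested.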
